A study of Mus musculus with 5 samples.

Results

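Drug efflux pumps and enzymes of xenobiotic metabolism were followed in MLE-15 cells, a mouse lung epithelial line, after lentiviral delivery of an shRNA against Grhl2, a transcription factor of epithelia. The genes were chosen by symbol: every row of the deposited table paired with exactly 1 symbol that begins with Abcb, Abcc, Abcg, Cyp1, Cyp2, Cyp3a, Gsta, Gstm, Gsto, Gstp, Gstt, Ugt1, Ugt2 or Sult, leaving out Cyp2f2 and the Cyp26 and Cyp27 genes. This gave 125 genes on 127 rows, of 19937 genes with a single-symbol row. The set was proposed because Abcg2 was known to be much higher in Grhl2 shRNA cells, so that value is given as a description with no test. The other genes entered by the symbol rule, but the rule was set with earlier results of these data known. The letters of the rule also brought in 6 P450 genes of the Cyp11, Cyp17, Cyp20 and Cyp21 families, most of which make steroid hormones and do not handle drugs.

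The 3 Grhl2 shRNA samples carried a lentivirus with the hairpin V2LMM_20130, and the 2 non-silencing control samples one with the non-targeting hairpin RHS4346. Each sample came from its own transduction of MLE-15 cells, which descend from lung tumours of mice whose SV40 large tumor antigen was driven by the human surfactant protein C promoter. Both groups also shared the GFP reporter of the vector, the VSV-G coat, 16 h of infection at a multiplicity of 50 with 5 µg/ml polybrene, and 6 days of selection in 5 µg/ml puromycin. A single cell line and a single hairpin against Grhl2 were used, so the hairpin and the loss of Grhl2 cannot be told apart.

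Foreign and endogenous small molecules leave a cell in stages. Cytochrome P450 enzymes oxidise them, glutathione S-transferases, sulfotransferases and UDP-glucuronosyltransferases attach a polar group, and ATP-binding cassette (ABC) pumps of the B, C and G subfamilies export the products or the unchanged compound. Receptors such as the aryl hydrocarbon receptor, CAR and PXR, and the stress factor Nrf2, set the level of many of these genes. In the lung, airway and alveolar epithelium meet inhaled chemicals and carry several of these enzymes and pumps, although most of the families are best known from the liver.

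The values were log2 signals of 1 oligonucleotide array per sample, and the median signal of the arrays lay between 5.29 and 5.32. Over the genes tested, r was 0.9984 to 0.9987 within a group and 0.9967 to 0.9971 between groups, a correlation across genes, which are not replicates. Grhl2 itself had log2 values of 7.43, 7.43 and 7.60 in the Grhl2 shRNA samples, against 7.77 and 7.68 in the control samples. All 3 knockdown values were below both control values, yet the log2 difference of −0.24 (SE 0.065) missed the threshold (limma adjusted p = 0.082, exact two-sided permutation p = 0.2, where 0.1 is the smallest p that 3 against 2 samples allow). Of 13 epithelial markers, 12 passed the filter on low values, among them Epcam, Cdh1, Krt8, Sftpb and Nkx2-1, and 2 of the 12 fell, Cldn4 and Sftpd. The linear signals of the 13 summed to between 20262 and 21200 in the Grhl2 shRNA samples and between 21092 and 21307 in the control samples. Of 4 leukocyte, 4 endothelial and 4 liver markers on the array, 2, 3 and 2 passed the filter and none was called. Ptprc, Kdr and Alb were among those below it. Those that passed had mean log2 signals of 5.16 (Cd3e), 4.33 (Csf1r), 4.82 (Tie1), 4.63 (Cdh5), 4.28 (Pecam1), 5.54 (Apoa1) and 4.49 (Tat). Passing the filter therefore does not by itself show that a gene is expressed. Among 5 fibroblast markers, all above the filter, Dcn rose by 0.70 on the log2 scale (limma adjusted p = 0.036). The other 4, Col1a1, Col1a2, Col3a1 and Pdgfra, were not called and lay slightly below 0, between −0.07 and −0.0002. Only Dcn was higher. The 5 summed to between 418 and 501 in the Grhl2 shRNA samples and between 366 and 378 in the control samples, and their part in the results was not tested. In a bulk sample, fewer cells of a type and less RNA per cell cannot be told apart.

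Most of the drug-handling genes were dim in these cells. A filter on low values, at a mean log2 signal of 4.22, left 54 of the 125 genes (43.2%), while it left 14979 of all 19937 genes (75.1%). By role, 18 of 25 efflux genes, 17 of 59 P450 genes and 19 of 41 conjugating enzymes could be tested. None of the 8 Ugt genes and none of the 6 Cyp3a genes passed the filter. The members just inside the filter were Cyp21a1 at a mean of 4.30 and Cyp2d26 at 4.33, and just outside were Gstm6 at 4.22 and Cyp2b23 at 4.12.

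Apart from Abcg2, few members changed and they went both ways. Of the 53 other tested members, 1 rose (Gstp3), 4 fell (Cyp2s1, Gstm2, Abcc5 and Abcc3) and 48 did not pass. That is 9.43% called, beside 6.38% of all 14979 genes tested, of which 2.86% were higher and 3.52% lower. The median log2 fold change of the 54 was −0.002, and it was 0.002 over all genes, and 27 lay above 0 and 27 below. The 2 groups did not overlap in 20 of the 54 (37.0%), beside 41.5% of all genes. An absolute log2 fold change of at least 0.25 was found in 7 of 54 members (13%), Abcg2 among them, beside 5.62% of all genes. All values over the 54 include Abcg2, whose known rise chose the set and supports none of them. Members also varied more within groups, with a median residual SD of 0.070 beside 0.055 for all genes.

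**Figure D1:**
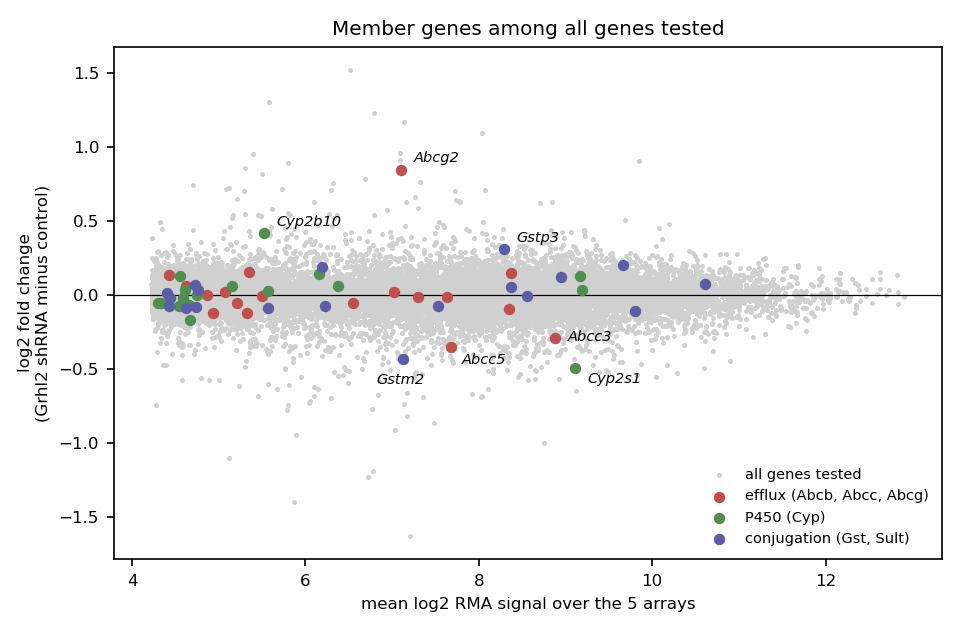
Log2 fold change (Grhl2 shRNA minus control, vertical axis) against the mean log2 signal over the 5 arrays (horizontal axis) for the 14979 genes tested, in grey, with the 54 members coloured by role. Abcg2 stands well above the other members at 0.85, and most members lie within the grey band around 0.

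Abcg2 (probe set 10538640) encodes the breast cancer resistance protein, an apical pump that exports drugs, porphyrins and urate and marks side-population stem cells. It had log2 values of 7.44, 7.45 and 7.44 in the Grhl2 shRNA samples, against 6.55 and 6.64 in the control samples. The 3 knockdown samples were nearly equal and the groups lay far apart. The means were 7.44 ± 0.0031 (SD, n = 3) and 6.60 ± 0.066 (SD, n = 2), a log2 difference of 0.85 (SE 0.045) or 1.80-fold. In size it was the twelfth largest rise of all genes tested. Leaving out any 1 array kept the difference between 0.80 and 0.89. None of its relatives came near it: Abcg8, a subunit of the sterol pump of liver and gut, stood at 0.13 on the log2 scale (SE 0.052, adjusted p = 0.188), Abcg1, which loads cholesterol onto high-density lipoprotein, −0.005 (adjusted p = 0.98), and Abcg4, a lipid pump best known from brain, −0.05 (SE 0.056, adjusted p = 0.63).

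RefSeq gives Abcg2 3 start sites on build GRCm38.p6, and the array value does not separate them. Their windows, 250 bases before to 50 after the start, are printed because Abcg2 is the member that differed most, and the window of Gstp3 because it is the other member that rose. Capitals mark the xenobiotic response core GCGTG, to which the aryl hydrocarbon receptor and Arnt bind.

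Abcg2 start 1, chr6:58584283-58584582, plus strand: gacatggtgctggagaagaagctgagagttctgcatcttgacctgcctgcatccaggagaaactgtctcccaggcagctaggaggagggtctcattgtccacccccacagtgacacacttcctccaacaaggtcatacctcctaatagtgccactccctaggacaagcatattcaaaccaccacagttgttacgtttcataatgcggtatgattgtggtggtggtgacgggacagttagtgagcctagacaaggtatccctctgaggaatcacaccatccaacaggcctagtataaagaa
Abcg2 start 2, chr6:58596422-58596721, plus strand: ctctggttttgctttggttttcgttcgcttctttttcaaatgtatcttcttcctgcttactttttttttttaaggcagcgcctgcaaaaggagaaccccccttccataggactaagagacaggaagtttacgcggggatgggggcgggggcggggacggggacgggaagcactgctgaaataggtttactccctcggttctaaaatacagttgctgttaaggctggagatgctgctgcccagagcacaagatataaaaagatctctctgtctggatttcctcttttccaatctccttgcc
Abcg2 start 3, chr6:58640296-58640595, plus strand: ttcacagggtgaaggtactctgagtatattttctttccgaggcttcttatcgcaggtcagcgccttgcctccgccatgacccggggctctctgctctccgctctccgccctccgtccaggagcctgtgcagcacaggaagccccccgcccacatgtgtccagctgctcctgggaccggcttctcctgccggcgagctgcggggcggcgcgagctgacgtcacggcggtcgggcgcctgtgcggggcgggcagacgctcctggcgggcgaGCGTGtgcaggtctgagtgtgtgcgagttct
Gstp3, chr19:4059398-4059697, minus strand: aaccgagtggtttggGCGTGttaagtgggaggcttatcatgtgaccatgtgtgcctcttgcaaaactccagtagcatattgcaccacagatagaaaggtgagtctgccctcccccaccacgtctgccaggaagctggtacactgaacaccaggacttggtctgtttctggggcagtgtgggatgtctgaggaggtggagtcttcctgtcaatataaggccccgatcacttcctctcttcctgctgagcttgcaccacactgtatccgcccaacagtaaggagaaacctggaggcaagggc

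The third Abcg2 window was the richest in G and C (67% and 28 CG pairs, beside 50% and 3 in the first and 48% and 10 in the second), and it alone of the 3 held the core, at position 270. In the Gstp3 window the core began at position 16. Such a match is frequent: GCGTG was found, on either strand, in 32.4% of the 32851 promoter windows of the RefSeq table and in 27 of 121 windows (22.3%) of all members with a window. The other motifs searched were TGACNNNGC (antioxidant response element), CACGTG (E-box) and the Grainyhead motifs AACCGGTT and AACNGGTT, of which the second includes the first. None of these 4 motifs was found in the printed windows or in those of Abcc5, Cyp2s1 and Gstm2. Those last windows held no GCGTG either, and Abcc3 had no window. Over the windows of Abcg2 and the called members, GCGTG was in 2 of 7 (28.6%), beside 13 of 42 (31%) for tested members not called. TGACNNNGC was in 0 of the 7 and in 9 of the 42 (21.4%). Over all windows in the table, TGACNNNGC was in 12.4%, CACGTG in 7.15%, AACCGGTT in 0.146% and AACNGGTT in 2.09%. Of the 125 members, 102 had a window, and AACNGGTT was in 3 of their 121 windows (2.48%), those of Gsta3, Sult1e1 and Ugt2b35. A match is letters in a window and shows no binding.

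**Figure D2:**
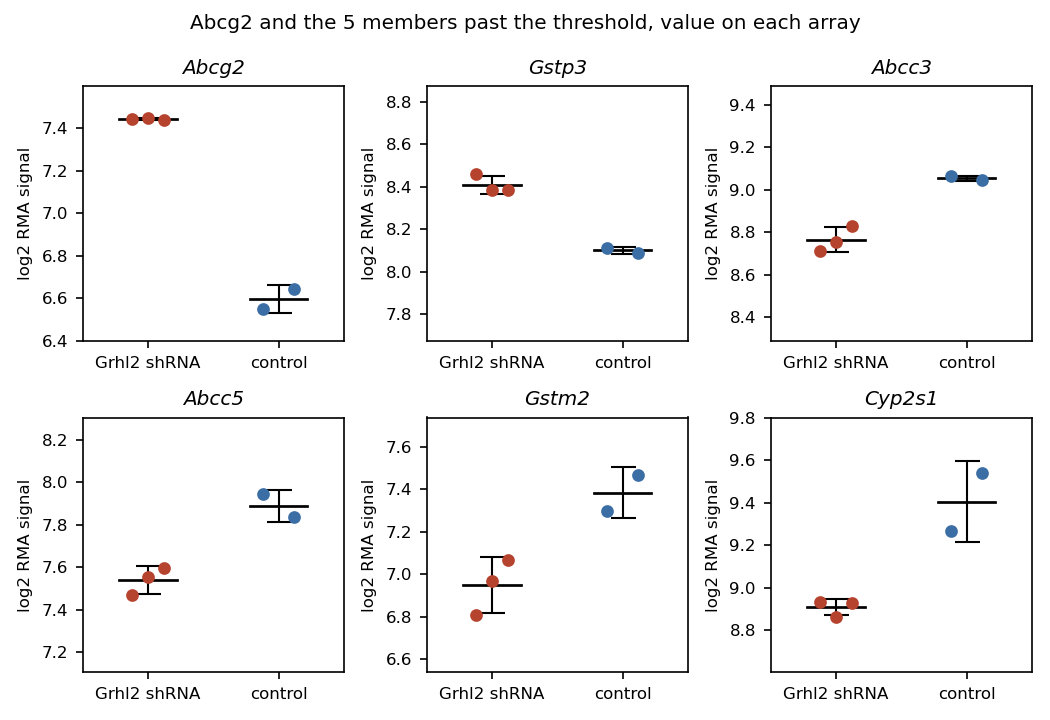
Log2 signal on each array (points) for Abcg2 and the 5 members past the threshold, Grhl2 shRNA samples on the left (n = 3) and control samples on the right (n = 2) of each panel, with group means (lines) and SD (bars). Every vertical axis spans the same range of log2 units, and the groups do not overlap in any panel.

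The C subfamily held members on both sides of 0. Abcc3 and Abcc5, the multidrug resistance proteins MRP3 and MRP5, fell. Abcc5 (10438478), which exports cyclic nucleotides and nucleotide analogs, had log2 values of 7.47, 7.56 and 7.60 in the Grhl2 shRNA samples, against 7.94 and 7.84 in the control samples. Its log2 fold change was −0.35 (SE 0.057, limma adjusted p = 0.021), 1.27-fold lower. Abcc3 (10389894), which exports glucuronides and bile salts across the basolateral membrane, had 8.71, 8.75 and 8.83 in the Grhl2 shRNA samples, against 9.06 and 9.05 in the control samples. It differed by −0.29 (SE 0.048, adjusted p = 0.021), 1.22-fold lower. Both were lower in all 3 knockdown samples, but the calls rested on the number of arrays: Abcc3 passed in 1 and Abcc5 in 2 of the 5 fits that left out an array, with adjusted p up to 0.122 and 0.119.

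The other 7 tested C members did not pass. Abcc4 (MRP4), which exports cyclic nucleotides and prostaglandins, had 8.39, 8.47 and 8.44 in the Grhl2 shRNA samples, against 8.32 and 8.25 in the control samples, a log2 fold change of 0.15 (adjusted p = 0.117). Abcc1 (MRP1), the main exporter of glutathione conjugates, had a log2 fold change of −0.10 (95% confidence interval −0.19 to −0.001, adjusted p = 0.21). For both the groups did not overlap, though the differences were small. Abcc8 and Abcc9, the sulfonylurea receptors that regulate potassium channels and pump no drug, were at 0.16 (adjusted p = 0.152) and 0.02 (adjusted p = 0.90). Abcc6, whose loss in humans and mice leads to calcified connective tissue, was at −0.12 (adjusted p = 0.21), Abcc10 at −0.06 (adjusted p = 0.57) and Abcc12 at 0.06 (adjusted p = 0.73). Abcc2 (MRP2), the apical counterpart of Abcc3, was below the filter with log2 signals of 4.01 to 4.14 in the Grhl2 shRNA samples and 4.06 to 4.12 in the control samples.

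In the B subfamily 5 of 9 genes could be tested and none passed. Abcb1a, which encodes P-glycoprotein, the classical multidrug pump, had log2 values of 4.66, 5.03 and 4.89 in the Grhl2 shRNA samples, against 4.92 and 4.79 in the control samples. Its log2 fold change was 0.003, with a 95% confidence interval of −0.24 to 0.25, so that a change of the size of those in Abcc3 and Abcc5 lies outside the interval and a smaller one does not. The second mouse P-glycoprotein gene, Abcb1b, was below the filter, at 3.77 to 3.99 in the Grhl2 shRNA samples and 4.07 to 4.15 in the control samples. Lysosomal and mitochondrial members made up the rest. Abcb9, a peptide transporter of lysosomes, was at −0.12 (SE 0.040, adjusted p = 0.119), and the organelle transporters Abcb6, Abcb8 and Abcb10 lay between −0.02 and 0.02.

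**Figure D3:**
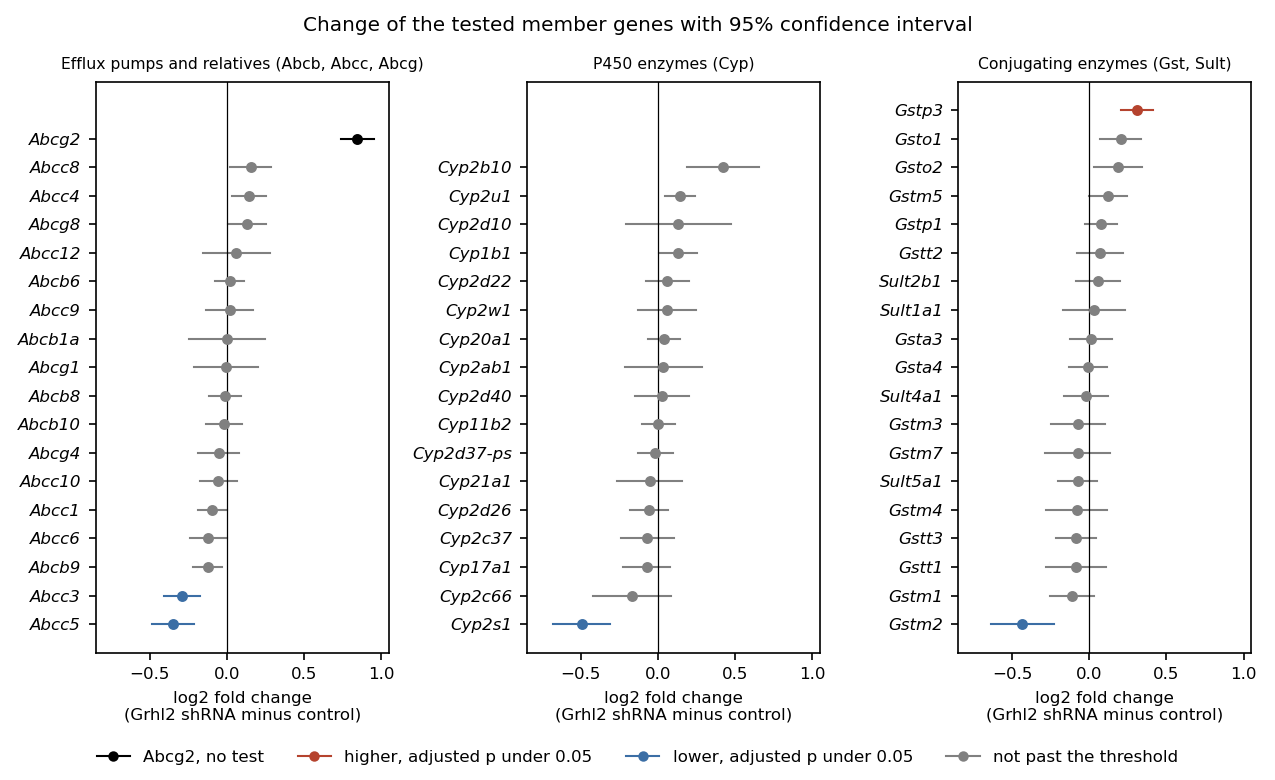
Log2 fold change (Grhl2 shRNA minus control, horizontal axis) of each of the 54 tested members with its 95% confidence interval, in 3 panels by role and ordered by size. Red and blue mark members past an adjusted p of 0.05, black marks Abcg2, which is shown without a test, and the intervals of most grey members cover 0.

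Among P450 enzymes Cyp2s1 fell and no other passed. Cyp2s1 (10561128), a P450 of airway, skin and gut epithelium that dioxin induces, had log2 values of 8.93, 8.86 and 8.93 in the Grhl2 shRNA samples, against 9.27 and 9.54 in the control samples. The 3 knockdown values lay close together and below both controls, which were themselves apart. Its log2 fold change was −0.50 (SE 0.079, limma adjusted p = 0.020), 1.41-fold lower. Size depended on the controls: it was −0.36 without control replicate 2 (adjusted p = 0.072) and −0.63 without control replicate 1 (adjusted p = 0.032), and the calls without knockdown replicates 1 and 2 were lost as well. Of 5 markers of airway club and ciliated cells on the array, 3 were tested and none was called. Of those tested, 2 lay below 0 and 1 above, with a median log2 fold change of −0.18. The linear signals of the 5 summed to between 433 and 509 in the Grhl2 shRNA samples and between 526 and 538 in the control samples. These sums mostly follow Cyp2f2, by far the brightest of the 5 at a mean log2 signal of 8.69, beside 5.03 for Scgb1a1, the next. Scgb1a1, the club cell secretory protein, was at −0.31 (adjusted p = 0.147), Cyp2f2, a club cell P450, at −0.18 (adjusted p = 0.288) and the ciliated cell factor gene Foxj1 at 0.04 (adjusted p = 0.785), while Scgb3a2 and Dnah5 were below the filter. Their part in the lower Cyp2s1 was not tested.

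Cyp2b10 (10551197), the textbook target of CAR, is a near neighbour of Cyp2s1 in the genome. It had log2 values of 5.64, 5.53 and 5.89 in the Grhl2 shRNA samples, against 5.30 and 5.23 in the control samples. All 3 knockdown values were above both controls and knockdown replicate 3 was the highest. The log2 fold change of 0.42 (SE 0.098) missed the threshold at an adjusted p of 0.054. Of the 5 fits that left out an array it passed in 1, that without knockdown replicate 3 (0.32, adjusted p = 0.048), and in the other 4 the adjusted p lay between 0.053 and 0.233. Whether Cyp2b10 and Cyp2s1 differ in their response was not tested.

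Cyp1b1, an extrahepatic enzyme of the aryl hydrocarbon receptor battery that activates polycyclic hydrocarbons, had 9.26, 9.15 and 9.23 in the Grhl2 shRNA samples, against 9.05 and 9.13 in the control samples. Its log2 fold change was 0.13 (adjusted p = 0.197). Cyp1a1, the most inducible enzyme of that battery, was below the filter, at 3.61 to 3.88 in the Grhl2 shRNA samples and 3.72 to 3.75 in the control samples. Cyp2u1, a fatty acid hydroxylase, was at 0.14 (adjusted p = 0.093), with groups that did not overlap. The 5 tested Cyp2d genes lay between −0.06 and 0.13, Cyp2c37 and Cyp2c66 at −0.07 and −0.17, and the orphan Cyp2w1 and Cyp2ab1 at 0.06 and 0.03, with adjusted p from 0.41 to 0.89. Among the steroid enzymes, Cyp17a1, Cyp21a1 and Cyp11b2 were at −0.07, −0.05 and 0.002, and the orphan Cyp20a1 was at 0.04.

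Of 15 tested glutathione S-transferases 1 rose and 1 fell. Gstp3 (10464594), a pi-class gene, rose. It had log2 values of 8.46, 8.39 and 8.39 in the Grhl2 shRNA samples, against 8.11 and 8.09 in the control samples, a log2 fold change of 0.31 (SE 0.044, limma adjusted p = 0.015) or 1.24-fold. Its neighbour Gstp1, the widespread pi-class enzyme, had 10.65, 10.61 and 10.67 in the Grhl2 shRNA samples, against 10.54 and 10.60 in the control samples. The log2 fold change was 0.08 (adjusted p = 0.35). Gstp3 lost its call without either control array, at adjusted p of 0.082 and 0.108, while its size stayed between 0.28 and 0.32.

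Gstm2 (10501222), a mu-class enzyme, fell. It had log2 values of 6.81, 6.97 and 7.07 in the Grhl2 shRNA samples, against 7.30 and 7.47 in the control samples. The groups did not overlap, but the knockdown values were themselves spread, with replicate 1 the lowest. Its log2 fold change was −0.44 (SE 0.086, adjusted p = 0.035), 1.35-fold lower, and it passed in 1 of the 5 fits that left out an array, with adjusted p up to 0.180. The Gstm genes form a single cluster, and the other 5 tested did not pass. Gstm1, the major mu-class enzyme of liver, was at −0.11 (adjusted p = 0.32) and Gstm5, best known from brain and testis, at 0.12 (adjusted p = 0.23). Gstm3, Gstm4 and Gstm7 lay between −0.08 and −0.07. The value for Gstm3 was that of its brighter row, and its dimmer row (10501218) differed by 0.05. Mu-class and pi-class genes are close copies of each other within their class, and probe sets may share signal, so that a change in 1 gene of a class is less certain than for the pumps.

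The omega-class genes Gsto1 and Gsto2, thiol transferases that reduce dehydroascorbate and lie side by side, were both higher in every knockdown sample without passing. Gsto1 had 9.69, 9.84 and 9.71 in the Grhl2 shRNA samples, against 9.56 and 9.53 in the control samples, a log2 fold change of 0.20 (adjusted p = 0.081). Gsto2 was at 0.19 (adjusted p = 0.147). Their 2 values came from the same arrays and are not independent. The alpha-class genes Gsta4, which detoxifies the lipid aldehyde hydroxynonenal, and Gsta3 were at −0.01 (adjusted p = 0.95) and 0.01 (adjusted p = 0.93). The theta-class genes Gstt1, Gstt2 and Gstt3 were at −0.09, 0.07 and −0.09, with adjusted p of 0.39 to 0.58.

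Sulfotransferases and glucuronosyltransferases gave no call. Of 16 Sult genes 4 were tested, and their log2 fold changes lay between −0.07 and 0.05. Sult2b1, a cholesterol and hydroxysteroid sulfotransferase of skin, had 8.33, 8.40 and 8.45 in the Grhl2 shRNA samples, against 8.41 and 8.26 in the control samples (0.05, SE 0.061, adjusted p = 0.65). Sult5a1 was at −0.07 (SE 0.053, adjusted p = 0.46), the phenol sulfotransferase Sult1a1 at 0.03 (adjusted p = 0.87) and the brain form Sult4a1 at −0.02 (adjusted p = 0.87). The 8 Ugt2 genes had mean log2 signals between 2.46 and 3.88.

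The 71 members below the filter had mean log2 signals from 1.96 to 4.22 and differed between groups by at most 0.25. Fitted together with all single-symbol genes and no filter, none of the 71 passed with limma (smallest adjusted p 0.074), and 5 had an unadjusted p under 0.05, beside 9.24% of the 4958 genes below the filter. Those 5 were chosen after their values were seen. Sult2a3 and the bile salt pump gene Abcb11 were at 0.25 and 0.24, and Cyp3a13, Abcb1b and the sterol pump gene Abcg5 at −0.25, −0.20 and −0.14. At such signals the array cannot tell a low level from background.

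None of the tested receptors and factors that control these genes passed, where 6.38% of all genes tested were called. At that share, lists this short would hold few calls. Of the 7 genes of the aryl hydrocarbon receptor axis, 4 were tested and none was called. Ahr, the receptor, had 9.49, 9.64 and 9.54 in the Grhl2 shRNA samples, against 9.61 and 9.67 in the control samples (log2 fold change −0.08, adjusted p = 0.45). The largest difference was that of Aldh3a1, an aldehyde dehydrogenase of the same battery, at −0.17 (adjusted p = 0.147). Of 12 nuclear receptors and P450 electron donors 9 were tested and none was called. Cyb5a, which donates electrons to P450 enzymes, was at −0.15 (adjusted p = 0.144), and the reductase gene Cyb5r3 at −0.10 (adjusted p = 0.23), while the PXR and CAR genes Nr1i2 and Nr1i3, chosen after their values were seen, were at −0.01 and 0.01. Of 20 genes of the Nrf2 antioxidant response 18 were tested and none was called. The cystine carrier gene Slc7a11 was at 0.27 (adjusted p = 0.077), Pgd, of the pentose phosphate pathway, at −0.19 (adjusted p = 0.072), and the list median was −0.0001. Over the 3 lists, no median was farther from 0 than −0.05, beside 0.002 for all genes. Ahrr, Rxrg, Nr1h4 and Nqo1 of these lists were below the filter and were not tested.

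Other enzymes of drug metabolism held larger changes than the regulators. Of 40 listed, 30 were tested, of which 1 rose, 3 fell and 26 did not pass, 21 lay below 0 and 9 above, and the median was −0.07. Over all genes tested 2.86% were called higher and 3.52% lower, and no test of the list was made. Akr1c14 (10403291), a hydroxysteroid dehydrogenase, had log2 values of 5.37, 5.17 and 4.98 in the Grhl2 shRNA samples, against 5.81 and 5.90 in the control samples (log2 fold change −0.68, SE 0.105, adjusted p = 0.019). Ephx1 (10360684), the microsomal hydrolase that opens the epoxides P450 enzymes make, had 8.81, 8.98 and 8.97 in the Grhl2 shRNA samples, against 9.29 and 9.42 in the control samples (−0.44, SE 0.067, adjusted p = 0.019). In both genes every knockdown value was below both controls. Ces1g, a carboxylesterase, fell by 0.39 (adjusted p = 0.023), and Cbr3, a carbonyl reductase, rose by 0.43 (adjusted p = 0.0051). The sulfate donor synthase genes Papss1 and Papss2, chosen after their values were seen, were at −0.17 (adjusted p = 0.095) and −0.25 (adjusted p = 0.082).

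The calls among uptake carriers and other ABC genes stand beside 6.38% of all genes tested that were called and 3.52% that were called lower. Of 29 uptake and exchange transporters 17 were tested, of which 2 fell, none rose and 15 did not pass, with a median of −0.01. Slco4c1 (10356886), an organic anion carrier best known from kidney, had 5.02, 5.22 and 5.11 in the Grhl2 shRNA samples, against 5.51 and 5.69 in the control samples (−0.48, SE 0.077, adjusted p = 0.020). Slc15a2 (10439321), the peptide carrier that brings peptide-like drugs into lung epithelium, had 7.62, 7.67 and 7.80 in the Grhl2 shRNA samples, against 7.98 and 8.04 in the control samples (−0.31, SE 0.061, adjusted p = 0.034). For both carriers the groups did not overlap. Of 27 ABC genes outside the member prefixes 15 were tested and 1 passed, Abca7, a phospholipid transporter, which fell by 0.22 (adjusted p = 0.037). The list median was 0.04. Abca4, the retinoid transporter of photoreceptors, had the largest difference of that list, −0.32, and did not pass (adjusted p = 0.127).

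**Figure D4:**
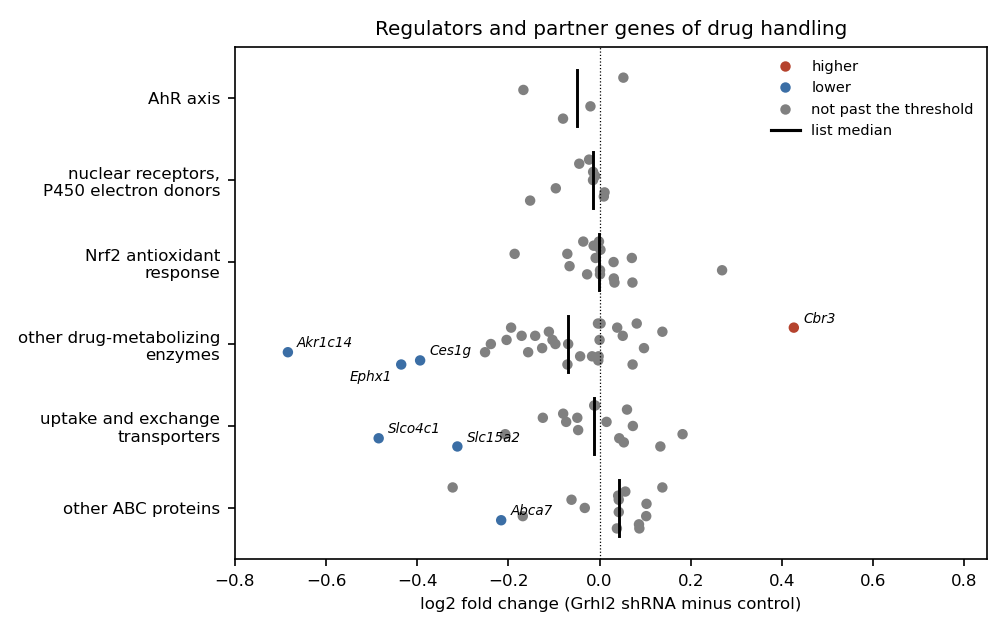
Log2 fold change (Grhl2 shRNA minus control, horizontal axis) of the tested genes of 6 lists of regulators and partners, 1 point per gene, with the list median as a black line. Only named points passed the threshold: Cbr3 was higher, and Akr1c14, Ephx1, Ces1g, Slco4c1, Slc15a2 and Abca7 were lower.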

How the data were processed

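RNA of 3 Grhl2 shRNA and 2 non-silencing control samples was measured on 1-colour Affymetrix arrays from 300 ng of total RNA. The authors deposited log2 values. The submitters' processing notes name RMA and Affymetrix Expression Console. RMA removes background, forces arrays to a common distribution (a shift of all genes at once would be hidden) and summarises probes. Versions and build were not given in the sources used here; that values are log2 rests on their range and on RMA.

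Of 34760 rows, 21640 had 1 symbol in the platform annotation, 1321 several and 11799 none, and only the first were used. By Entrez ID, 21553 matched RefSeq, with no symbol changed, and all 127 member rows did. Rows with a mean below 4.22, the 25th percentile, were left out, and the brightest row stood for a gene. Groups were compared over all 14979 genes with limma 3.58.1 (lmFit, eBayes; R 4.3.3), in a two-sided test with Benjamini-Hochberg adjustment and a threshold of 0.05. Precision is limited by the few arrays (3 residual degrees of freedom). The fit was tested on simulated data. Members and lists were chosen with earlier results of these data known, so no test of a list is given. Named with values on each array were Abcg2, each called member, and some other members and list genes, among them genes that did not pass. Also named were the largest changes of each family, common textbook members, called list genes (or the 2 largest changes), and other members that complete a family. Promoter windows were from RefSeq, build GRCm38.p6. Each sample is called an independent transduction in the labels.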

Additional observations from a re-analysis of the deposited data

How the results depend on the processing

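Abcg2, the 5 called members, Cyp2b10 and Gsto1 kept their direction in each alternative in which they were fitted. Counts of members higher are given with Abcg2, which chose the set and supports none of them, and then without it. The main counts were 956 genes, 2 members higher (1 without Abcg2) and 4 lower. With no filter 418 genes were called, and 3 members lower. With the filter at the 50th percentile, 1708 genes and 5 members higher (4) were called, with a member median of 0.020 over the 25 members left. With a trended robust prior, 2034 genes and 4 members higher (3) were called, and at an adjusted p under 0.1, 1851 genes and 5 members higher (4). With all 34760 probe sets tested together, limma called 0 genes and 0 members either way, where 4515 rows had an unadjusted p under 0.05. Leaving out each array in turn gave 67 to 493 genes, 1 to 3 members higher (0 to 2), 0 to 4 lower and a member median of −0.0090 to 0.015, and no member was called lower without knockdown replicate 2 or control replicate 2. The fewest calls came without control replicate 2 (67) and control replicate 1 (91). Grhl2 passed with the filter at the 50th percentile and with the trended robust prior (both −0.24), and without knockdown replicate 3. Its log2 fold change without each array ran from −0.29 to −0.19.

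The replicate number links the groups for 2 pairs only, and same-numbered samples deviated together at r = 0.057 and 0.019. With 2 controls, the deviations of 1 mirror those of the other, so these are not separate checks and cannot settle the pairing. The numbers were not taken as pairs. With the replicate block, 172 genes, 1 member higher (0) and 1 lower were called. Array weights, repeated quantile normalization, centred arrays and testing every single-symbol probe set on its own gave 913 to 1094 genes and the same 5 members besides Abcg2.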

Other observations

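In all, 14 rows pair a symbol of these families with other symbols and were left out of the report, since a signal there belongs to no single gene. Of the 14, 3 were at or above the filter value of 4.22 and in 4 (28.6%) the groups did not overlap, beside 41.5% of all genes tested. A row shared by Gsta1, Gsta2 and 2 predicted genes (10587331) had the largest difference, −0.75 on the log2 scale, with 1.74, 2.30 and 1.82 in the Grhl2 shRNA samples, against 2.49 and 2.92 in the control samples. Both other rows of the same genes differed less, by 0.08 and −0.11. The rows with differences of −0.75 and 0.08 were far below the filter, at mean log2 signals of 2.25 and 2.41. Rows shared by Gstp1 and Gstp2 differed by −0.03 and 0.02, beside the difference of 0.31 for Gstp3. The row shared by 8 Ugt1a genes had 3.91, 3.91 and 3.98 in the Grhl2 shRNA samples, against 3.92 and 3.85 in the control samples, a difference of 0.05. None of these rows was tested.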
